A study of Mus musculus with 11 samples.

Results

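The subject is the placement of an HA-tagged fusion protein inside domains of H3K27ac in the mouse tumour cell line M00002, measured by CUT&RUN, which sequences the DNA fragments cut loose by a nuclease that is tethered to an antibody. The members are the 29176 HA peaks of M00002 that lie on chromosomes 1 to 19 and X and do not overlap a peak of the IgG control of the same line, out of 40045 HA peaks deposited for both lines of the series. They were set against the 28849 peaks of H3K27ac antibody ac4729 and the 15013 peaks of antibody ac647 that passed the same steps. The p65 peaks of M00002 (15076) and the HA peaks of the second line, M00001 (8121), were placed in the same domains as readouts that played no part in choosing members. The labels write the construct as CRfus1 and the lines as Fus1, and the series title names ZFTA-RELA, so the HA signal is taken here as that fusion. Both lines came from tumours, carry the tagged fusion, were grown as adherent cells in serum-free neural medium with bFGF and EGF, and received no treatment. The promoter that drives the fusion and the clonality of the lines are not given in the sources used here. Each line has its own mouse number, so line and animal cannot be told apart, and each target has 1 library per line. Shares and ratios below therefore carry intervals that cover counting error over peaks only, and no test between conditions was made.

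ZFTA-RELA joins the zinc finger protein ZFTA to RELA, the p65 subunit of NF-kappaB, and drives most supratentorial ependymomas. Acetylation of histone H3 at lysine 27 marks the nucleosomes beside active promoters and enhancers, while transcription factors usually contact the short stretches of accessible DNA between those nucleosomes. A domain of H3K27ac is therefore a patchwork in which peaks of the mark can be interrupted by gaps, and a factor can lie on the acetylated stretches, at their edges or in the gaps. Since an antibody to p65 can also recognise the RELA part of the fusion, p65 is not an independent protein here.

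Overlapping H3K27ac peaks of the 2 antibodies were merged into islands, islands no more than 1000 bp apart were joined, and a joined region was kept as a domain when both antibodies had a peak in it. This gave 10424 domains that cover 11.5 Mb, with a median width of 1018 bp and a range of 189 to 5888 bp. Of these, 7768 held 1 island, 2252 held 2 and 404 held 3 or more, with 3107 gaps in all. A further 17744 regions had peaks of only 1 antibody. The labelled cell type was looked at through marker lists: a domain within 1 kb of a gene end was found for 5 of 18 radial glia genes and 9 of 15 housekeeping genes, against 1 of 11 oligodendrocyte lineage genes, 0 of 11 neuronal genes, 1 of 10 microglia and leukocyte genes and 1 of 9 endothelial genes. Over all protein-coding genes the share was 12.7%, so the counts for oligodendrocyte, microglial and endothelial genes are near it. Neither Sox2 nor Pax6 nor Fabp7, defining genes of radial glia, had one. In a bulk profile, fewer cells with a mark and less of the mark per cell cannot be told apart.

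The sequences that follow show the DNA under HA summits that fall in a RefSeq promoter window (250 bases before to 50 after an annotated start, GRCm38.p6, the assembly of mm10), each 121 bases long with the summit at base 61, written on the strand of the gene. They were taken from the genes named below that have a full window of 121 bases. Among those, they are the strongest in island interiors and in gaps, and the strongest in the NF-kappaB and housekeeping lists. Stronger summits without a full window, as at Mc2r, Arih1, Ep300 and Eef1a1, are not printed. Capitals mark matches on either strand to GGGGCC or to the kappaB-like pattern GGANTTTCC, so that GGCCCC in capitals is GGGGCC read on the other strand. Rbm42, which encodes an RNA-binding protein, had its summit 62 bp upstream of the start on chr7:30650230-30650350 (minus strand) inside an island. Stk11ip, whose product binds the kinase LKB1, had its summit 111 bp upstream on chr1:75521358-75521478 (plus strand), also inside an island. Mios, a part of the GATOR2 complex that acts on mTORC1, had its summit 153 bp upstream on chr6:8209014-8209134 (plus strand), inside an island. AW549877 had its summit 168 bp upstream on chr15:3995854-3995974 (minus strand), in a gap. Rrp9, a component of the U3 snoRNP that starts opposite Parp3, had its summit 136 bp upstream on chr9:106477113-106477233 (plus strand), in a gap. Icam1, an adhesion molecule and a classic NF-kappaB target, had its summit 117 bp upstream on chr9:21015763-21015883 (plus strand), inside an island. B2m, the light chain of MHC class I, had its summit 72 bp upstream on chr2:122147555-122147675 (plus strand), at an island edge. Ppia, which encodes cyclophilin A, had its summit 118 bp upstream on chr11:6415689-6415809 (plus strand), in a gap.
Rbm42: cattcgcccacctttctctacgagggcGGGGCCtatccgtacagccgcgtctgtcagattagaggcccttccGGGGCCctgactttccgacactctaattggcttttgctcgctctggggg
Stk11ip: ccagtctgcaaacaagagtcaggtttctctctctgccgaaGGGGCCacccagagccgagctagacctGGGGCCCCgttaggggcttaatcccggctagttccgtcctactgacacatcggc
Mios: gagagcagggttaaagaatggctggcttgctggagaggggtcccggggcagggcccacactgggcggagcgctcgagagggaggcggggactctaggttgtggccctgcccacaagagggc
AW549877: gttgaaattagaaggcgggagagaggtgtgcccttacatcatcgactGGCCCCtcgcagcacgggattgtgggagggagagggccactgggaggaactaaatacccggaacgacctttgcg
Rrp9: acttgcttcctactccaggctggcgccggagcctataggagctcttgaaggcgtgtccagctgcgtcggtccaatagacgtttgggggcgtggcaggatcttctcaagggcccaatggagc
Icam1: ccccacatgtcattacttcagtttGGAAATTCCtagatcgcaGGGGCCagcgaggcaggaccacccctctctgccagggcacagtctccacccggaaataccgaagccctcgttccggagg
B2m: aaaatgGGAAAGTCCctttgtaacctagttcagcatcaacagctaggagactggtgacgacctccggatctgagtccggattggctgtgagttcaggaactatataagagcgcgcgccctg
Ppia: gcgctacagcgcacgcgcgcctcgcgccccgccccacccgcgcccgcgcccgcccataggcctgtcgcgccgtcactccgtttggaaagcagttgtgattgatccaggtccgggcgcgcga
Rbm42 and Stk11ip carry GGGGCC on both sides of the summit base, AW549877 carries it once just before the summit, and Icam1 carries both patterns upstream of the summit. In B2m the kappaB-like pattern lies more than 40 bases from the summit. In Nfkbia, which encodes the NF-kappaB inhibitor IkappaB-alpha and was looked at after its values were seen, it begins 10 bases from an edge summit of fold 11.6. The windows of Mios, Rrp9 and Ppia hold neither pattern, which says only that these letters are not within 60 bases of the summit.

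Of the HA summits that fell in a domain, most lay in island interiors and few at island edges. Of the 29176 summits, 7026 (24.1%, 95% Clopper-Pearson interval 23.6 to 24.6) fell in a domain, which is 11.5 Mb of the 2632 Mb reached by genes or peaks. Island interiors held 5744 summits, 732 per Mb. The outer 100 bp of islands held 872, or 324 per Mb, and gaps held 410, or 417 per Mb. The density in interiors was thus 2.26 times that at edges (2.10 to 2.42), and the density in gaps was 0.570 times that in interiors (0.516 to 0.630) and 1.29 times that at edges (1.15 to 1.45). By definition, a gap holds no H3K27ac peak of either antibody among those that passed IgG removal. The density in gaps stood between interiors and edges at joining distances of 500 and 1000 bp and not at 3 kb. With islands joined up to 500 bp apart the ratio of gaps to interiors was 0.797 and to edges 1.80 (1.58 to 2.04); with 3 kb they were 0.254 and 0.571 (0.515 to 0.634), so that gaps fell below edges, and without IgG removal the ratio to edges was 1.10 (0.984 to 1.23). The lower density in gaps than in interiors did not hold for every H3K27ac list: the ratio was 0.966 (0.887 to 1.05) when domains came from ac647 alone and 1.00 (0.790 to 1.27) when both lists were limited to −log10 q of at least 5.

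Outside the domains the density fell off within the first kilobase. The 1 kb on each side of a domain held 1006 summits (48.5 per Mb), 7.11 times the density elsewhere (6.68 to 7.58) but below edges, which were 6.69 times as dense (6.11 to 7.32). The ratio to elsewhere moved most with the settings, to 19.6 for a flank of 250 bp and 27.7 for the 2000 strongest HA peaks. Regions with 1 antibody only held 3495 summits, 423 per Mb, close to the values for gaps and below interiors, with a ratio to interiors of 0.578 (0.555 to 0.603). The remaining 17649 summits, 60.5% of all, lay elsewhere at 6.81 per Mb. The median of the authors' fold enrichment of HA was 7.96 in interiors, 6.60 in gaps, 6.28 at edges, 5.98 in 1-antibody regions, 5.39 in flanks and 3.74 elsewhere. Regions with 1 antibody were thus denser in summits than edges but had a lower median fold. Most HA peaks lay outside the domains.

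Within the HA list, the share in domains rose over 5 equal classes of fold. From the lowest to the highest class it was 3.70%, 8.62%, 20.8%, 32.5% and 54.8% (53.5 to 56.1). The classes differed inside the domains too. Of the summits in domains, the share in gaps was 10.2% in the lowest class and 4.35% in the highest, the share at edges 20.8% and 9.13%, and the share in the middle of the domain, defined below, 21.3% and 36.8%. Strong HA peaks were therefore placed deeper in the domains than weak ones. The lowest class spans folds of 2.41 to 3.21 and the highest 8.18 to 111.

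The order of interiors, gaps, edges, flanks and elsewhere was the same for both readouts that played no part in the choice. For p65 of M00002 the density was 535 per Mb in interiors, 209 at edges, 278 in gaps, 27.6 in flanks and 2.88 elsewhere. For HA of M00001 it was 289, 106, 133, 13.0 and 1.61 per Mb in the same zones. Regions with 1 antibody differed in place: they had 241 per Mb for p65 and 119 for HA of M00001, below gaps in both, whereas for HA of M00002 they were at 423 and gaps at 417. Interior over edge was 2.57 (2.35 to 2.80) for p65 and 2.73 (2.41 to 3.09) for HA of M00001, and gap over edge was 1.33 (1.15 to 1.54) and 1.26 (1.02 to 1.55). The domains themselves are those of M00002, since no H3K27ac list of M00001 was used here.

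**Figure D1:**
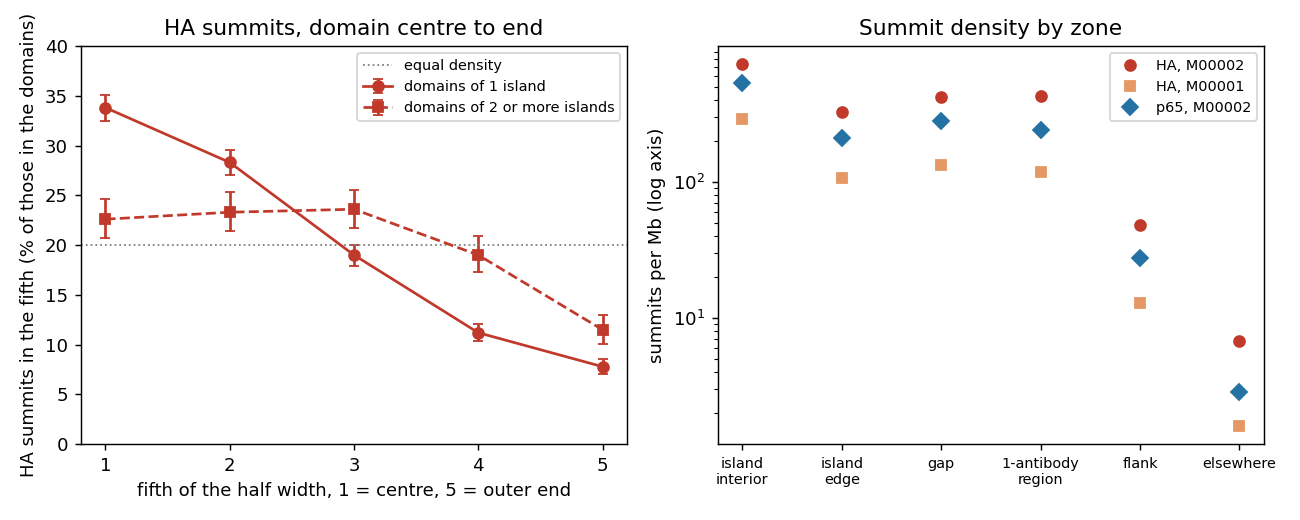
Left, the share of HA summits of M00002 in 5 classes of relative distance from the domain centre to its end, for domains of 1 island and of 2 or more, with 95% intervals; the dotted line at 20% is equal density. Right, summits per Mb (log axis) by zone for HA of M00002, HA of M00001 and p65 of M00002; in domains of 1 island the share falls to 7.79% at the end, against 33.8% at the centre, and interiors are the densest zone in every list.

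Relative to the whole domain, HA summits were concentrated at the centre. When the way from the centre to either end was divided into 5 parts of equal length, each of which would hold 20% at equal density, the parts held 30.8% (29.7 to 31.9), 26.9%, 20.2%, 13.3% and 8.77% (8.12 to 9.45) of the 7026 summits, from the centre outward. The median HA fold fell in the same order, from 8.91 in the innermost part through 7.96, 7.06 and 6.73 to 6.15 in the outermost. This central placement was not the same in every kind of domain. In domains of 1 island the innermost part held 33.8% (32.5 to 35.1) and the outermost 7.79%. In domains of 2 or more islands the first 4 parts held at most 23.6%, and the outermost 11.5%. Among domains of 2000 to 3999 bp the innermost part held 18.8% (16.2 to 21.6), an interval that includes 20%, and the third part held the most, 24.7% (21.8 to 27.8). The outermost part was below 20% in every width class from 500 to 3999 bp, at 9.44%, 6.73% and 13.3%.

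At finer scale, HA summits were denser beside the H3K27ac summits than on them. The median distance from an HA summit in a domain to the nearest H3K27ac summit of either antibody was 139 bp, with quartiles of 79 and 212 bp. Corrected for how much of the domains lies at each distance, the density was 510 per Mb within 0 to 49 bp of an H3K27ac summit, 671 at 50 to 99 bp, 972 at 100 to 149 bp and 985 at 150 to 199 bp. Beyond that it was 833 at 200 to 249 bp, 535 at 250 to 299 bp and 184 at 450 to 499 bp. The density at 150 to 199 bp was 1.93 times that within 0 to 49 bp (1.78 to 2.10). Measured to the summits of 1 antibody at a time, the median distance was 188 bp for ac4729 and 197 bp for ac647. The HA and p65 lists of M00002, unlike the HA list of M00001, are named with the tag 120 bp. The part of that tag in these distances was not tested.

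Both other readouts were also denser at 150 to 199 bp than within 0 to 49 bp, but HA of M00001 less so than HA of M00002. At 50 to 99 bp the ratio to the first 50 bp was 0.968 (0.850 to 1.10) for HA of M00001. For HA of M00002 it was 1.32 (1.21 to 1.43). For p65 the density was 357 per Mb within 0 to 49 bp and 772 at 150 to 199 bp, a ratio of 2.16 (1.97 to 2.38), and the median distance was 143 bp. For HA of M00001 the density was 233 and 356 per Mb, a ratio of 1.53 (1.34 to 1.74), and the median distance was also 139 bp. For IgG peaks of M00002 in domains, with peaks shared with HA set aside, the median distance to an H3K27ac summit was 45.0 bp (251 peaks). The number of IgG peaks is small, and domains for the IgG values were built without removing IgG overlaps, since removal would fix the IgG count near 0. H3K27ac peaks that overlap IgG peaks therefore stay in these domains, which can by itself shorten the IgG distance. For this reason it is no contrast to the distance of HA.

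**Figure D2:**
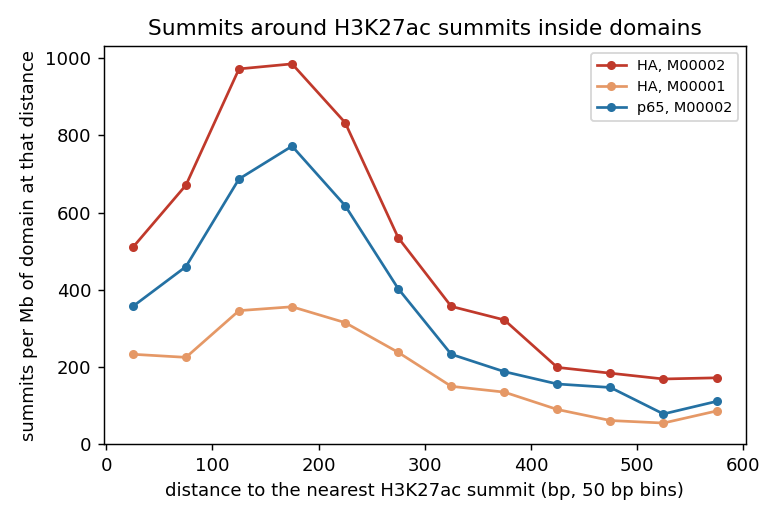
Summits per Mb of domain (y) against distance to the nearest H3K27ac summit of either antibody in 50 bp bins (x) for HA of M00002, HA of M00001 and p65 of M00002. HA of M00002 has 510 per Mb in the first bin and 985 at 150 to 199 bp, with the decline starting beyond 200 bp.

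Against IgG, HA was placed in domains far more often. In domains built without removing IgG overlaps, and with peaks shared between the lists left out, 24.4% of HA peaks (23.9 to 24.9) and 4.76% of IgG peaks (4.20 to 5.37) had their summit in a domain, an odds ratio of 6.45 (5.67 to 7.34). With the shared peaks kept, the shares were 25.1% and 9.15% and the odds ratio 3.32 (3.03 to 3.64). By zone, HA had 717 summits per Mb in interiors and 317 at edges, and IgG had 18.8 in interiors and 31.0 at edges, from 152 and 87 peaks. H3K27ac peaks that overlap IgG peaks stay in these domains, and their part in the IgG densities was not tested. The zones of IgG, like its distance, are therefore no contrast to those of HA.

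Gaps were occupied according to their length. HA summits lay in 2.02% of 496 gaps shorter than 100 bp, 13.0% of 599 gaps of 100 to 199 bp, 17.2% of 1165 gaps of 200 to 399 bp (15.0 to 19.5), 13.5% of 534 gaps of 400 to 699 bp and 15.7% of 313 gaps of 700 to 1000 bp. Per Mb of gap the density was highest at 100 to 199 bp, 831, and at 200 to 399 bp, 620, and lower at 400 to 699 bp, 260, and 700 to 1000 bp, 187. Island interiors, for comparison, had 732 per Mb. Of the HA summits in gaps of 200 to 399 bp, 60.0% lay in the middle 50% of the gap; in gaps of 700 to 1000 bp the share was 28.6%, so that summits there were placed towards the outer parts of the gap. For p65 the density was also highest in gaps of 100 to 199 bp, at 532 per Mb, and lowest in those of 700 to 1000 bp, at 115.

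Single domains show both placements. Among gene-end domains, the strongest HA summit in a gap belonged to Arih1, which encodes a ubiquitin ligase (domain chr9:59485373-59487233, 1861 bp), with a fold of 25.1, 25 bp from the nearest island and 301 bp from the nearest ac4729 summit. In Ep300, which encodes the acetyltransferase p300 that places H3K27ac (chr15:81584551-81586508), a summit of fold 23.6 lay 15 bp outside an island and 121 bp from the nearest ac647 summit. Azin1, an inhibitor of antizyme in polyamine control, held 2 HA summits, both in gaps, with folds of 21.7 and 4.80. Aldh3b2, an aldehyde dehydrogenase, and AW549877 followed with 19.5 and 18.8. Pknox1, a homeodomain factor, had 19.2 in a gap but also 1 IgG peak within 5 kb, and the part of that peak in the result was not tested. By the definition of a gap, the mark lay on both sides of the HA summit in these cases, in domains of 1074 to 2400 bp.

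The strongest summits in the island interiors of gene-end domains had higher folds. Mc2r, the receptor for ACTH (chr18:68426989-68428821), had a fold of 33.9 at a relative distance of 0.00327 from the centre of its domain, where 0 is the centre and 1 the end. Rbm42 had 32.0, Mios 29.3 and Stk11ip 28.8 at relative distances of 0.177, 0.169 and 0.200. Sik1, a salt-inducible kinase, had 27.7, and Srrm1, a splicing coactivator, had 27.6. Although these summits lay in islands, they stood 132 to 290 bp from the nearest H3K27ac summit in Mc2r, Rbm42, Mios, Stk11ip and Srrm1, and 42 bp in Sik1. Each of the 6 domains held exactly 1 HA summit, 1 p65 summit and 1 HA summit of M00001.

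**Figure D3:**
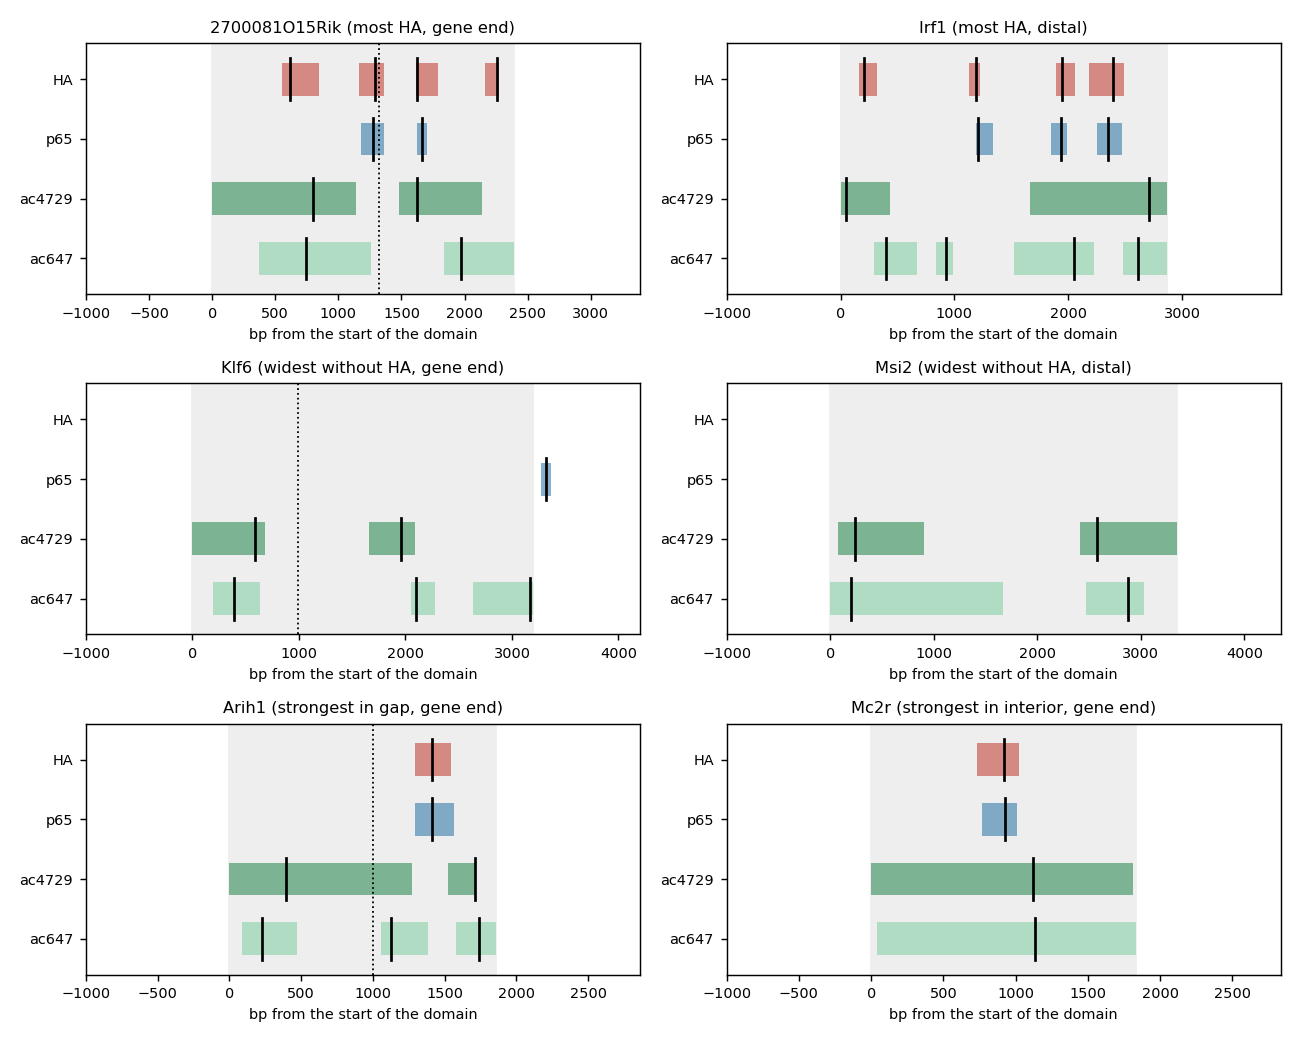
The first domain under each naming rule, drawn in bp from its start (grey, the domain): bars are peaks of HA, p65, ac4729 and ac647 of M00002, black ticks their summits, and dotted lines annotated gene starts. The 2700081O15Rik and Irf1 domains hold 4 HA summits each, those of Klf6 and Msi2 hold 0, the Arih1 summit of fold 25.1 lies between islands, and the Mc2r summit of fold 33.9 lies beside both H3K27ac summits.

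At least 1 HA summit was present in 5895 of the 10424 domains, 56.6% (55.6 to 57.5). A single summit was the usual state: 4869 domains held 1, 926 held 2 and 100 held 3 or more, with a maximum of 4. Wider domains held HA more often. The share was 24.2% of 1004 domains under 500 bp, 48.4% of 4059 domains of 500 to 999 bp, 67.1% of 4700 domains of 1000 to 1999 bp, 80.4% of 653 domains of 2000 to 3999 bp (77.1 to 83.4) and all 8 of the domains of 4000 bp or more. The odds of holding HA were 2.85 times as high in domains of 1 kb or more as in narrower ones (2.63 to 3.09). With domains from ac4729 alone this odds ratio was 5.77 and with ac647 alone 8.24. Per kb of domain the number was highest at 500 to 999 bp and fell from there on: it was 0.630, 0.674, 0.599, 0.526 and 0.465 summits per kb in the same width classes. From 500 bp upward, HA summits per domain therefore increased less than in proportion to width.

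Where a domain held several HA summits, neighbours were well separated. Over 1131 neighbouring pairs the median spacing was 491 bp, the quartiles 351 and 744 bp and the smallest 113 bp; 62.2% of the spacings lay between 200 and 599 bp and 1.24% below 200 bp. The deposited lists hold non-overlapping peaks with a median HA width of 116 bp, which limits how close 2 summits can be listed. The share of domains with p65 was 67.9%, 84.6% and 96.0% where HA had 1, 2 and 3 or more summits, and the share with HA of M00001 was 36.8%, 58.1% and 80.0%. These shares were not compared within width classes, and both readouts also rose with domain width. From domains under 500 bp to those of 2000 to 3999 bp, p65 rose from 13.8% to 70.8% and HA of M00001 from 6.37% to 51.8%.

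The gene-end domains with the most HA summits were those of 2700081O15Rik and of Nedd4, a ubiquitin ligase, with 4 each. In 2700081O15Rik (chr19:7416304-7418691) the folds were 8.84, 8.87, 6.07 and 2.83 in order along the domain, and the second lay in the gap 34 bp from an island. In Nedd4 (chr9:72661513-72664115) they were 3.91, 5.88, 4.91 and 5.89, all of them modest. The next 8 domains, with 3 summits each, were those of Erbin, a scaffold of the receptor ERBB2, Tmem40, Gpr146, an orphan receptor, Parp3 with Rrp9, Ptbp1, a splicing repressor, Fgf15, Grm4, a glutamate receptor, and Ntf5, neurotrophin-4. In most of them 1 summit was much stronger than the rest. Erbin had folds of 3.76, 5.22 and 22.9, Gpr146 had 4.16, 19.1 and 3.32, Ptbp1 had 18.4, 4.40 and 4.07, and Parp3 with Rrp9 had 5.20, 4.73 and 18.6, the last in the gap. Grm4 was the exception, with 15.9, 3.38 and 15.7.

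Among distal domains, 3 held 4 HA summits. The first lay 5405 bp outside Irf1, an interferon-regulated factor (chr11:53761746-53764609), with folds of 3.08, 5.09, 5.35 and 18.0 over 3 islands. The second was inside Thop1, a peptidase gene, with 4.68, 14.8, 5.39 and 4.26, and the third inside Actn1, which encodes an actin crosslinker, with 6.51, 8.84, 14.4 and 7.93 in 1 island of 3477 bp. With 3 summits each followed domains inside Ak5, Pgap3, Usp2 and Kif26a and outside Pmepa1, Egfr and Foxo6. The Egfr domain, 87474 bp from the nearest end of that growth factor receptor gene, had folds of 11.5, 20.6 and 3.95 within 1437 bp. Distance to the nearest gene is given for orientation and does not assign the domain to that gene.

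Some wide domains held no HA summit. At gene ends the widest was that of Klf6, a zinc finger factor (chr13:5860494-5863693, 3200 bp, 3 islands), with ac4729 and ac647 folds of up to 4.30 and 4.05 and no p65 summit. It was followed by Ube2q1 (2987 bp), Bcl9l with Cxcr5 (2925 bp), Mmp16 (2905 bp, 1 p65 summit) and Prrc2b (2875 bp). The widest distal ones lay inside Msi2 (3350 bp), near Gm40514 (3206 bp), inside Cd47 (3138 bp, 1 p65 summit), and outside Mpdz (3086 bp) and Trib2 (3085 bp). The Cd47 domain counts as distal because the nearest gene end lies 4612 bp away. Annotated Cd47 starts nevertheless lie at -286 and -279 bp from the start of the domain, so it is close to a promoter. Peaks did lie close by: outside the domain but within 1 kb of it there was an HA peak of fold 5.57 at Bcl9l with Cxcr5, an HA peak of fold 4.72 at Cd47 and a p65 peak of fold 6.17 at Klf6. None of these 10 domains held an HA summit of M00001. Each had at least 2 islands, and islands covered 1323 to 2848 bp of them.

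Domains at gene ends (within 1 kb of either end of a protein-coding gene) held HA more often than distal ones, but they were also wider. Only the outer ends of each gene were used. Distal domains therefore include some within 1 kb of another annotated start, such as the Cd47 domain. HA was present in 63.3% of 2366 gene-end domains (61.3 to 65.3) and in 54.6% of 8058 distal domains (53.5 to 55.7), with median widths of 1166 and 980 bp. The odds ratio was 1.44 (1.31 to 1.58) as counted and 1.23 (1.11 to 1.35) when compared within width classes by the Mantel-Haenszel method. When the highest ac4729 fold of the domain was added as a stratum it was 1.08 (0.976 to 1.20), an interval that includes 1. The width-stratified ratio was 0.803 (0.699 to 0.923) for the 2000 HA peaks with the highest fold, 0.986 (0.816 to 1.19) with both H3K27ac lists limited to −log10 q of at least 5, and 1.03 (0.969 to 1.10) with ac4729 alone. The direction of this difference therefore changed with the strength of the peaks counted. For HA of M00001 the same ratio was 1.60 (1.44 to 1.77), and 1.39 (1.25 to 1.55) with the ac4729 stratum. For p65 it was 1.11 (1.01 to 1.23), and 0.982 (0.889 to 1.08) with that stratum. Without chromosome 18, 2042 domains had an annotated start within 1 kb and 610 gene-end domains had none. With domains near an annotated start set against all others, the width-stratified ratio for HA of M00002 was 1.17 (1.06 to 1.30).

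Within width classes, the share with HA was 22.9% of gene-end and 24.4% of distal domains under 500 bp, 54.0% and 47.2% at 500 to 999 bp, 70.8% and 65.8% at 1000 to 1999 bp, and 78.8% and 81.4% at 2000 to 3999 bp. The intervals of gene-end and distal domains did not overlap at 500 to 999 bp (50.3 to 57.7 against 45.5 to 48.9) or at 1000 to 1999 bp (68.2 to 73.3 against 64.2 to 67.4), and overlapped in the narrowest and the 2000 to 3999 bp class. Over all widths, several summits in 1 domain were more common at gene ends, at 15.9% of gene-end against 8.07% of distal domains. Part of this goes with width. Within classes the shares were 0.654% and 0.470% under 500 bp, and 5.71% and 2.74% at 500 to 999 bp. They were 18.6% and 11.5% at 1000 to 1999 bp, and 42.1% and 36.6% at 2000 to 3999 bp. Among distal domains, those inside a gene and those outside genes had a width-stratified odds ratio of 1.04 (0.949 to 1.14), and of 1.13 (1.03 to 1.25) with the ac4729 stratum.

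**Figure D4:**
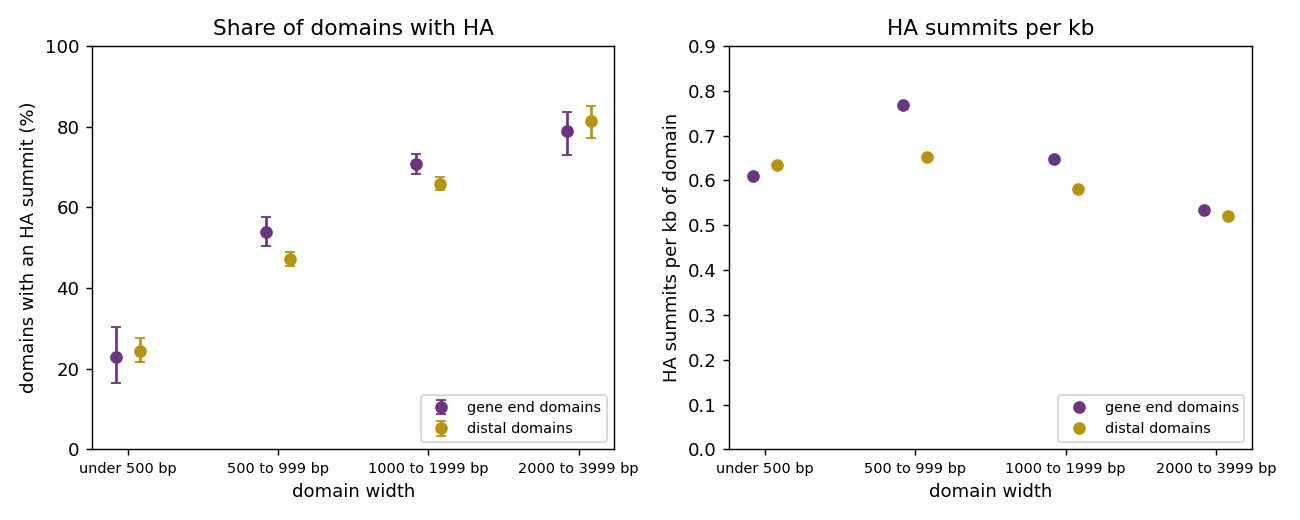
Left, share of domains with an HA summit of M00002 (%), with 95% intervals, and right, HA summits per kb of domain, by domain width, for gene-end domains and distal domains; the 8 domains of 4000 bp or more are not drawn. In the 4 classes drawn, the share rises with width in both (22.9% to 78.8% at gene ends, 24.4% to 81.4% in distal domains) while the number per kb stays between 0.521 and 0.769.

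The position of HA inside the domain also differed between gene-end and distal domains. In gene-end domains 9.59% of HA summits lay in gaps (8.31 to 11.0), against 4.42% in distal domains (3.88 to 5.02), an odds ratio of 2.29 (1.87 to 2.81). This ratio is as counted, without width classes and without correction for the length of gaps in each kind of domain. It is therefore not comparable with the width-stratified ratio for presence. The outer 100 bp of islands held 15.5% and 11.3%, island interiors 74.9% and 84.3%, and the innermost of the 5 parts of the domain 25.9% (24.0 to 27.9) and 32.6% (31.3 to 33.9). Gene-end domains more often had 2 or more islands, 32.1% against 23.5%, and the part of that in the difference was not tested. Their median distance from an HA summit to an H3K27ac summit was 150 bp, against 136 bp, and their median HA fold 7.16, against 7.81.

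Around annotated starts, HA and H3K27ac had their maxima at different positions. Of 1463 HA summits in domains within 1 kb of the start of a protein-coding gene, 59.0% lay upstream (56.4 to 61.5), and 41.0% lay in the 300 bp just upstream. The single fullest 100 bp was the one before the start, with 20.8% of the HA summits. Summits of ac4729 were sparse in that same stretch, with 4.26% of 2230 summits there, and were most frequent 100 to 199 bp downstream, with 13.0%, and 201 to 300 bp upstream, with 9.42%. Upstream positions accounted for 45.4% of ac4729 summits (43.3 to 47.5) and 48.7% of ac647 summits (46.6 to 50.8). For p65 the share upstream was 61.5% (58.4 to 64.5). Genes on chromosome 18 were not used in this comparison.

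**Figure D5:**
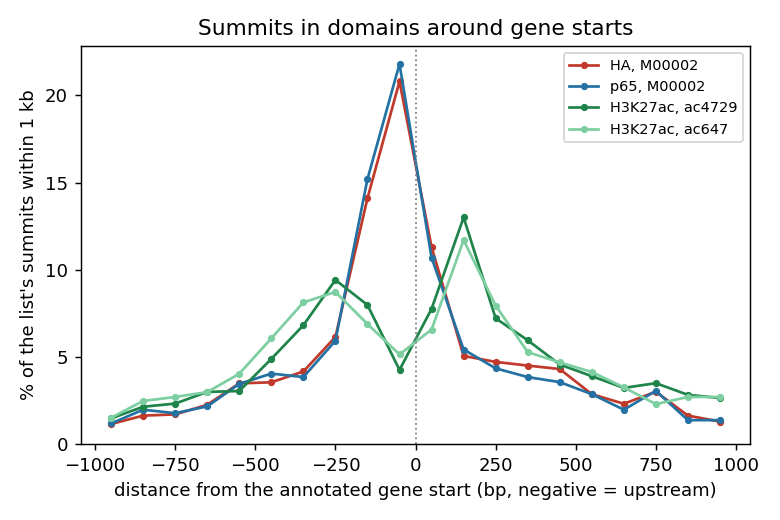
Share of each list's summits within 1 kb of an annotated gene start (%), in 100 bp bins of distance from the start, negative upstream, for HA, p65, ac4729 and ac647 of M00002, summits in domains only. HA peaks just before the start, at 20.8%, where ac4729 has 4.26%, and the H3K27ac lists rise on either side.

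The promoter windows were searched on both strands for 5 short patterns: GGGGCC, the GC box core GGGCGG of the Sp and Klf factors, the CCAAT box core ATTGG, the kappaB-like GGANTTTCC and the AP-1 pattern TGANTCA. In GC-rich runs, matches to the first and the next of these can overlap. GGGGCC was present in 55.1% of the 761 windows with an HA summit in a domain (51.4 to 58.6), in 46.7% of 375 windows whose domain held HA elsewhere, in 35.8% of 372 windows in a domain without HA (30.9 to 40.9) and in 29.7% of all 21020 windows. ATTGG was present in 49.0%, 30.9%, 28.5% and 38.5% of the same sets and GGGCGG in 74.4%, 63.7%, 55.1% and 46.6%. GGANTTTCC, at 1.84%, 0.800%, 1.88% and 1.29%, and TGANTCA, at 6.04%, 4.80%, 7.80% and 7.04%, were rare in each. The median GC content was 62.7%, 61.7%, 60.5% and 56.7%. Compared within 4 classes of GC content, windows with an HA summit over those in domains without HA had an odds ratio of 2.74 for ATTGG (2.07 to 3.63), 2.00 for GGGGCC (1.51 to 2.64) and 1.97 for GGGCGG (1.46 to 2.67). For GGANTTTCC it was 1.10 (0.437 to 2.78) and for TGANTCA 0.957 (0.580 to 1.58), with few matches. The 2 sets were chosen by unlike rules. A window counted for HA needed only its HA summit in a domain, whereas a window without HA had to lie inside a domain. The part of this in the odds ratios was not tested.

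Within the windows, matches to GGGGCC lay close to the HA summit. Their density was 6.03 per kb at 0 to 24 bp from the summit, 3.62 at 25 to 49 bp, 2.97 at 50 to 99 bp and 1.79 at 100 to 199 bp. The Rbm42, Stk11ip, AW549877 and Icam1 windows printed above each show such a match within 40 bases of the summit. GGGCGG had 8.03, 6.04, 6.38 and 5.23 per kb and ATTGG 4.27, 4.44, 3.35 and 1.93 at the same distances. The kappaB-like GGANTTTCC had 0.194, 0.0865, 0.0659 and 0.0136 per kb, from 7, 3, 4 and 1 matches, and TGANTCA had 0.276, 0.259, 0.164 and 0.188. These patterns also vary with distance from the gene start. Over all 21020 windows GGGGCC had 1.94 per kb in the 50 bp before the start and 0.946 per kb from 201 to 250 bp upstream, and GGGCGG had 6.32 and 1.54, so part of each profile may be shared with position along the promoter, which was not tested. A match is a description of the letters and not a binding site.

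Domains with HA differed from domains without it in both readouts outside the rule. A p65 summit was present in 71.0% of 5895 domains with HA (69.8 to 72.1) and in 5.12% of 4529 domains without HA (4.50 to 5.81), an odds ratio within width classes of 39.8 (34.4 to 46.0). An HA summit of M00001 was present in 40.9% (39.6 to 42.2) and 3.29% (2.79 to 3.85), an odds ratio of 17.0 (14.3 to 20.3). Both odds ratios were lower at gene ends, 24.1 (18.4 to 31.7) and 9.56 (7.32 to 12.5), than in distal domains, 47.0 (39.5 to 55.9) and 23.7 (18.7 to 30.0). Domains with HA were also wider than those without, 1146 against 860 bp in the median, and had somewhat higher H3K27ac, with median highest folds of 4.58 against 4.18 for ac4729 and 4.79 against 4.24 for ac647. The share with 2 or more islands was 25.1% against 25.9%. The HA and p65 lists of M00002 are both named with the tag 120 bp, which the other lists lack, and its part in the overlap of these 2 lists was not tested. The HA list of M00001 has no such tag.

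At named genes, HA in a gene-end domain was listed for 1787 of 21631 protein-coding genes (8.26%), which is 64.9% of the 2754 genes with such a domain. Among 25 NF-kappaB target genes 10 had a gene-end domain and 6 of these held HA. Icam1 led with a fold of 17.1, followed by Relb, a subunit of the alternative NF-kappaB pathway, with 14.6, Birc3, an inhibitor of apoptosis, with 14.1, and Tap1, a peptide transporter of antigen presentation, with 12.0. The Tap1 value belongs to a domain at the end of the gene away from its start. An HA summit 61 bp upstream of the Tap1 start had a fold of 3.51. Domains without HA were present at Nfkb1, Bcl3, Ccl2 and Il6. Of 12 AP-1 and immediate early genes 5 had a domain and 4 of these held HA: Fosl1, with 16.5, Egr1, with 15.3, Junb, with 15.0 in a gap, and Fos, with 4.29 at an edge. Of 18 radial glia genes, 5 had a domain and 4 held HA. These were Nes, the intermediate filament of neural progenitors, with 13.4, Hes1, a Notch effector, with 11.3, Vim with 5.74 and Sox9 with 4.90.

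Of 19 genes listed for ependymoma, 8 had a gene-end domain and 4 held HA. These were the receptor Fgfr3 with a fold of 14.0, Hes1 again, Rhbdf1, a rhomboid-like protein, with 7.58 and Lhx2, a forebrain homeodomain factor, with 4.26. Rela, Ccnd1, which encodes cyclin D1, Igf2 and Cdkn2a had a gene-end domain in which no HA summit was listed. Housekeeping genes had the highest share of all lists: 9 of 15 had a domain and 7 of these held HA, led by Gapdh with 15.7, Eef1a1 with 12.7, B2m with 10.5 and Ppia with 10.2. Among the lists for other cell types, HA was listed in 0 of 11 oligodendrocyte lineage genes, 0 of 11 neuronal genes, 1 of 10 microglia and leukocyte genes, which was Tmem119 with 16.5, and 1 of 9 endothelial genes, which was Egfl7 with 12.3. Given a domain, the share with HA was 60.0% in the NF-kappaB list, 50.0% in the ependymoma list, 80.0% in the radial glia list and 77.8% in the housekeeping list, against 64.9% over all genes, and each rests on no more than 10 domains.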

How the data were processed

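CUT&RUN libraries of M00002 (HA, IgG, H3K27ac with ac4729 and ac647, p65) and of M00001 (HA, IgG) were used, each deposited as 1 MACS2 peak list. The submitters' processing notes name the build mm10 and, without settings, MACS2, Bowtie2 2.3.5.1, deepTools, FastQC and Trim Galore; read depth and the control used in calling are not given in the sources used here. Each peak in the deposited lists has a fold enrichment (a ratio, the authors' value), −log10 values of p and q, and a summit offset. The smallest deposited −log10 p was 3.00 and fold served to rank, describe and filter the peaks of 1 list at a time.

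Peaks on chromosomes 1 to 19 and X were kept and those that overlap IgG of the same line by 1 bp or more removed: 761 of 29937 HA peaks of M00002, 560 of 29409 for ac4729, 962 of 15975 for ac647, 635 of 15711 for p65 and 383 of 8504 for HA of M00001. A peak was placed by its summit. Gene ends came from 21631 protein-coding genes of GRCm38.p6; starts, strands and sequences came from RefSeq promoter windows of the same assembly, which were not used for chromosome 18. Shares carry 95% Clopper-Pearson intervals, density ratios 95% intervals on the log scale from the counts, and odds ratios 95% Mantel-Haenszel intervals over width classes bounded at 500, 1000, 2000 and 4000 bp; a ratio was called where its interval excluded 1. Peaks are not replicates, so no p-values are given. The scripts (Python 3.11.15, numpy 2.4.6, scipy 1.17.1) were tested on simulated data.

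Named domains were the 10 gene-end and 10 distal ones with the most HA summits, the 5 widest of each without HA, the 6 gene-end domains with the strongest summit in a gap and the 6 in an interior, and up to 4 members per gene list by HA fold. Genes named without HA, and the radial glia genes without a domain, were chosen after their values were seen. The members, gene lists, patterns and classes were chosen with earlier results of these data known. Cbp, p300 and Rpb1 lists were not used here.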

Additional observations from a re-analysis of the deposited data

How the results depend on the processing

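Of 144 alternative values, 111 kept direction and call or, for counts and shares, stayed close. The share of HA summits in domains, 24.1%, was 21.7% without joining islands, 23.6% with joining at 500 bp, 25.2% at 3 kb, 33.6% with ac4729 alone, 18.4% with ac647 alone, 46.1% with HA limited to −log10 q of at least 5, 11.4% with H3K27ac so limited, 69.2% for the 2000 strongest HA peaks and 25.1% without IgG removal. The share of domains with HA, 56.6%, was 53.1% without joining, 57.7% at 3 kb, 33.4% with ac4729 alone, 36.3% with ac647 alone, 40.4% with HA limited by q, 75.4% with H3K27ac limited by q and 13.2% for the 2000 strongest. Gap over interior, 0.570, was 0.254 with joining at 3 kb, 0.797 at 500 bp, 0.966 with ac647 alone and 1.00 with H3K27ac limited by q. Gap over edge, 1.29, was 0.571 with joining at 3 kb and 1.10 without IgG removal, and 2.52 with H3K27ac limited by q. Flank over elsewhere, 7.11, was 15.3 with ac647 alone, 17.1 with HA limited by q, 19.6 for a flank of 250 bp and 27.7 for the 2000 strongest. Interior over edge, 2.26, was 4.19 for the 2000 strongest, and the ratio of 100 to 149 bp over 0 to 49 bp from an H3K27ac summit, 1.91, was 3.49. The odds ratio of HA for domains of 1 kb or more, 2.85, was 5.77 with ac4729 alone and 8.24 with ac647 alone. The gene-end odds ratio, 1.23, was 1.03 with ac4729 alone, 1.05 with HA limited by q, 0.986 with H3K27ac limited by q, 0.803 for the 2000 strongest and 1.08 with ac4729 fold as a stratum, which was added after seeing the data. The ratio of HA summits per kb, gene-end over distal, was 1.09, and 1.04, 1.02 and 0.840 with ac4729 alone, with HA limited by q and for the 2000 strongest. The cause of these changes was not tested. With gene ends at 5 kb, HA was listed for 10 NF-kappaB, 8 ependymoma, 5 radial glia, 9 housekeeping and 4 AP-1 and immediate early genes. Among the lists for other cell types it was listed for 1 oligodendrocyte lineage, 0 neuronal, 2 microglia and leukocyte and 4 endothelial genes. The share over all protein-coding genes was not computed at 5 kb, so these counts have no background beside them. The innermost part of the domain held more than 20% under the 7 alternatives run for it, between 27.1% and 40.8%; these include domains of 1 island (33.8%, added after seeing the data) and not single H3K27ac lists or H3K27ac limited by q. Leaving out a replicate was not possible with 1 library per target. No paired analysis was possible because each target has 1 library per line and no comparison has replicates that share a number. Read depth is unknown, so an absent peak is not evidence of absent fusion.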
